A study of Mus musculus with 8 samples.

Results

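The ErbB receptors, their ligands and an intracellular inhibitor were followed as 9 genes chosen by symbol: the receptor genes Egfr, Erbb2, Erbb3 and Erbb4, the ligand genes Nrg1, Nrg2, Nrg3 and Hbegf, and the inhibitor gene Errfi1. All 9 were found among the 24346 genes of the expression table. RNA was sequenced in 8 libraries of induced immature oligodendrocytes (iOLs), 4 labelled wild type (Med23+/+) and 4 labelled MED23KO (Med23-/-). The cells were primary mouse oligodendrocyte precursor cells (OPCs) from postnatal day 7 brain, selected on antibody against CD140a (the PDGFRA protein) after plates that deplete endothelial cells and microglia, expanded with the mitogens PDGF-AA (10 ng/ml) and NT-3 (1 ng/ml), and then held for 1 day in 15 nM T3 (thyroid hormone) with 10 ng/ml ciliary neurotrophic factor. In the study's mouse line, Cre made from the Olig1 gene removes floxed Med23 in the oligodendrocyte lineage (Med23 fl/fl;Olig1-Cre), and its controls were Med23 fl/fl without Cre. Both genotypes therefore carried floxed Med23 and received the same medium, and the presence of Cre and the loss of Med23 cannot be told apart. The labels do not say whether replicates came from separate animals, so p-values measure the spread between these libraries.

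ErbB receptors are tyrosine kinases of the cell surface that act as pairs once a ligand is bound. EGFR binds the EGF-like growth factors, among them HB-EGF and TGF-alpha. ERBB3 and ERBB4 bind neuregulins, ERBB2 has no known ligand of its own and serves as the partner of the others, and ERBB3 signals through such a partner because its own kinase is impaired. In the brain, EGFR is known from the expansion of glial progenitors, and axonal neuregulins are known to act on cells of the oligodendrocyte lineage.

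Because the study examined Med23 together with the factor Sp1, which binds GC-rich promoter sequence, the 250 bases upstream of the annotated start are shown for Egfr and Nrg3, which were higher in Med23-/- iOLs, and for Erbb4, the most abundant receptor gene. The sequences are from RefSeq on GRCm38.p6, the assembly that mm10 names, and run 5′ to 3′ on the strand of the gene. Capitals mark the letters GGGCGG or their reverse complement CCGCCC, the core of the GC box, the only motif searched, with overlapping matches allowed. The Egfr window (chr11:16751953-16752202, plus strand) held 1 match, and the Nrg3 window (chr14:39473089-39473338, minus strand) and the Erbb4 window (chr1:69108060-69108309, minus strand) held 0.
Egfr: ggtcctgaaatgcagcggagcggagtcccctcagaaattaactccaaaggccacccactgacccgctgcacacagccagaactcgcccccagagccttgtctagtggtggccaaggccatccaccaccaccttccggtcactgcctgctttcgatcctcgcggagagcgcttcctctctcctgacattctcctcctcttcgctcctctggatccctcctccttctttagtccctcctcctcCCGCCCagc
Nrg3: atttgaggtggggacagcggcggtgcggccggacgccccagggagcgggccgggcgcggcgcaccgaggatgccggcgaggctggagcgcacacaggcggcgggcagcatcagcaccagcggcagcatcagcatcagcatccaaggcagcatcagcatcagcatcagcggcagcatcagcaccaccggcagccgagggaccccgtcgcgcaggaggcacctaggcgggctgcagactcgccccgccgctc
Erbb4: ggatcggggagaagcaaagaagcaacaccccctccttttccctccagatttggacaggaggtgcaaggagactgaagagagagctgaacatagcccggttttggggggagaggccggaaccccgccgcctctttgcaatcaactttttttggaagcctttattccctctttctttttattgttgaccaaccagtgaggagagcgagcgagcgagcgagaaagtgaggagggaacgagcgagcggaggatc
The G and C content of these windows was 60.8% for Egfr, 72.4% for Nrg3 and 54% for Erbb4. Of all 32851 upstream windows in the promoter table, 32.7% held a match, and of the 9295 windows that were the first listed for a tested gene, 61.2% did. A match is only a run of letters, and its absence says nothing about Sp1. Erbb2 had an entry with 0 matches. Errfi1 had 2 entries, with 0 and 3 matches, and Erbb3, Nrg1, Nrg2 and Hbegf are named only.

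Levels are given as FPKM, fragments scaled to transcript length and to the library, so they can be set side by side between genes. How the libraries were scaled is not stated. Differences are given as log2 fold changes of FPKM + 1, Med23-/- over Med23+/+, with the standard error (SE) from limma. The fit took in 12328 genes, those averaging 1 FPKM or more over the libraries. Adjusted p is limma's p after Benjamini-Hochberg adjustment over those genes, and calls were made at 0.05. Gene positions are on mm10. Read counts were not used here, and the worth of 1 read, estimated from the steps between values under 0.3 FPKM, ran from 0.737 to 1 relative to Med23+/+ replicate 1. Med23 itself was at 12.2 to 12.7 FPKM in the Med23+/+ libraries and 7.93 to 8.49 FPKM in the Med23-/- libraries (log2 fold change -0.55, SE 0.07, adjusted p = 0.000353). The Med23-/- mean was 0.658 times the Med23+/+ mean, so much of the transcript remained. The study checked the deletion in protein, by western blot of primary OPCs, and these libraries hold RNA only. The 6 genes of the oligodendrocyte precursor list summed to 1716 FPKM or more in every library, with Olig1 the highest. The sum joins genes that moved in opposite directions, Pdgfra and Cspg4 being higher and Gpr17 and Sox10 lower in Med23-/- iOLs. Pdgfra averaged 121 FPKM in Med23+/+ and 334 FPKM in Med23-/- libraries, and Gpr17 averaged 698 and 355 FPKM. Defining markers of microglia and Schwann cells summed to at most 2.24 and 1.84 FPKM, and Foxd3 was listed at 0 throughout.

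Of the 9 genes, 8 reached the mean of 1 FPKM and were tested, and 6 of the 8 were called, 4 higher and 2 lower in Med23-/- iOLs. Of all tested genes, 30.0% were called, 15.9% higher and 14.1% lower. Egfr, Nrg1, Nrg3 and Errfi1 were higher, Erbb3 and Hbegf were lower, and Erbb4 and Nrg2 were not called. Erbb2 was too low to be tested in this way. With a fold change over 2 required as well, Egfr (higher) and Erbb3 and Hbegf (lower) were called, against 4.73% of all tested genes, 2.98% higher and 1.75% lower. That count depends on the pseudocount: with 0.1 in place of 1, Nrg1 and Nrg3 passed as well, making 5 genes, against 7.52% of all tested genes (5.30% higher and 2.21% lower). The libraries of the genotypes did not overlap for the same 6 called genes, and for 31.6% of all tested genes. Nrg3 reached the limit on low values only through its Med23-/- libraries, so these counts are an inventory and no measure of how unusual the genes are. The median log2 fold change was 0.41 over the 8 tested genes and -0.01 over all tested genes.

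**Figure D1:**
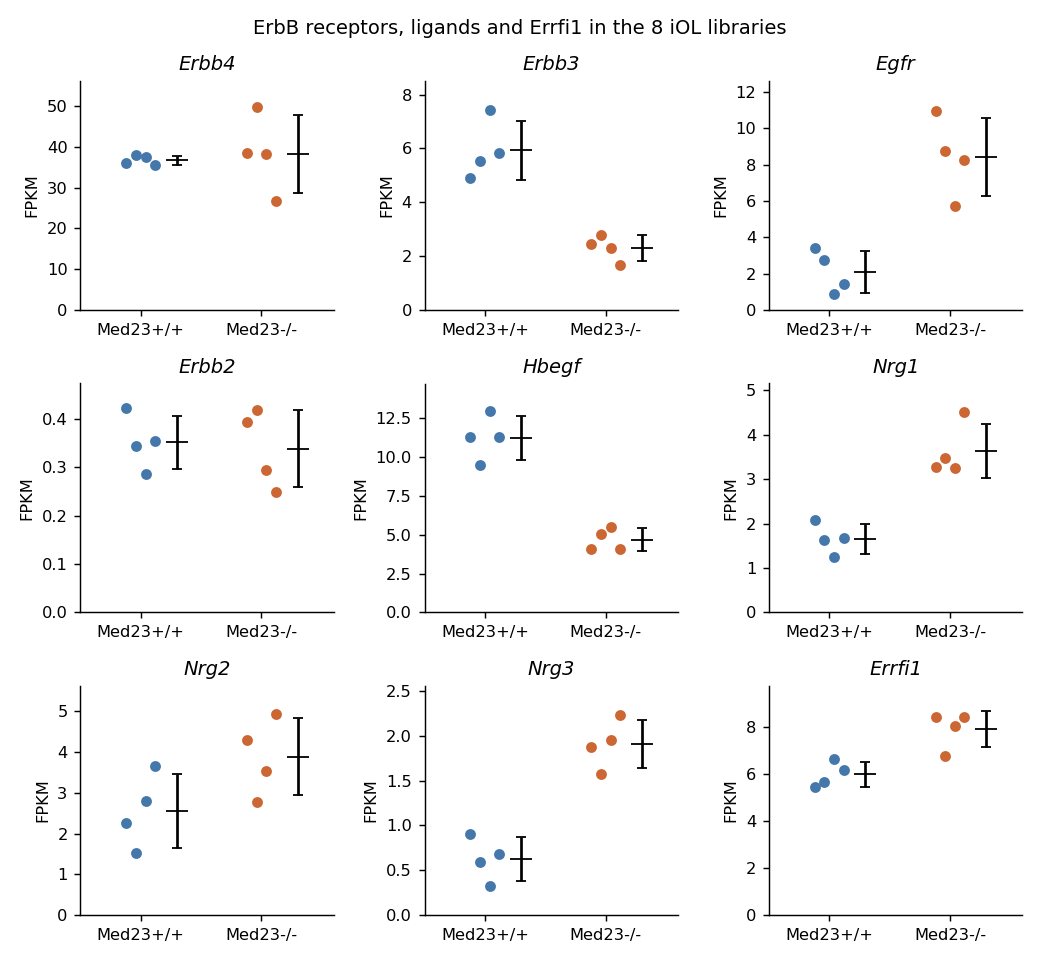
FPKM of the 9 genes in each library (points, replicates 1 to 4 from left to right, blue Med23+/+, orange Med23-/-), with the mean and SD of 4 libraries beside them and each vertical axis starting at 0. Egfr, Nrg1, Nrg3 and Errfi1 lie higher in every Med23-/- library, Erbb3 and Hbegf lie lower in every one, and Erbb2, Erbb4 and Nrg2 overlap.

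Erbb4 was by far the most abundant receptor transcript in both genotypes. It had 36.0, 37.9, 37.5 and 35.5 FPKM in Med23+/+ replicates 1 to 4 and 38.4, 49.9, 38.2 and 26.6 FPKM in Med23-/- replicates 1 to 4. The Med23-/- libraries enclosed the Med23+/+ range, with replicate 2 the highest and replicate 4 the lowest of all 8. Erbb4 averaged 36.7 ± 1.14 FPKM over the Med23+/+ libraries and 38.3 ± 9.49 FPKM over the Med23-/- libraries (SD, n = 4 each). Its log2 fold change was 0.03 (95% interval -0.32 to 0.37, adjusted p = 0.921). The interval holds no change of 2-fold in either direction, and changes within it cannot be told from none. Within replicates 1 and 2 the Med23-/- mean was 1.20 times the Med23+/+ mean, and within replicates 3 and 4 it was 0.888 times. The labels do not match replicate numbers between the genotypes, so this and later splits by number are description only. The sign of the difference turned without Med23-/- replicate 2 (log2 fold change -0.11). Erbb4 (chromosome 1, 68032186 to 69108059, minus strand) is a very long gene with 3 annotated coding transcripts, which FPKM of the whole gene does not separate.

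Egfr, the receptor of the EGF-like ligands, showed the largest rise among the tested genes of the family. Its values were 3.40, 2.74, 0.892 and 1.42 FPKM in Med23+/+ replicates 1 to 4 and 11.0, 8.78, 5.74 and 8.28 FPKM in Med23-/- replicates 1 to 4. The lowest Med23-/- value exceeded the highest Med23+/+ value. By an exact permutation test (two-sided, as are all such tests here), p was 0.0286, the smallest that 4 against 4 libraries allow. The mean went from 2.12 ± 1.16 to 8.44 ± 2.14 FPKM (SD, n = 4 each), 3.99 times as high, and the log2 fold change was 1.65 (SE 0.27, adjusted p = 0.00169). Replicates 1 and 2 were higher than 3 and 4 in Med23+/+ iOLs, and the ratio of the means was 3.21 within replicates 1 and 2 and 6.06 within replicates 3 and 4. Leaving out any single library gave log2 fold changes from 1.44 to 1.84, with adjusted p at or under 0.00773. Egfr lies on chromosome 11, 16752203 to 16918158, plus strand.

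Erbb3, the neuregulin receptor with an impaired kinase, moved the other way. It had 4.90, 5.54, 7.44 and 5.82 FPKM in Med23+/+ replicates 1 to 4 and 2.46, 2.77, 2.31 and 1.65 FPKM in Med23-/- replicates 1 to 4. No Med23-/- library reached the lowest Med23+/+ library (exact permutation test, p = 0.0286). The mean fell from 5.93 ± 1.08 to 2.30 ± 0.472 FPKM (SD, n = 4 each), 0.388 times its Med23+/+ value, and the log2 fold change was -1.07 (SE 0.14, adjusted p = 0.000609). The ratio was 0.502 within replicates 1 and 2 and 0.299 within replicates 3 and 4. Erbb3 (chromosome 10, 128567523 to 128589652, minus strand) has 1 annotated transcript.

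Erbb2, the shared partner receptor, had the lowest mean of the 9 genes in both genotypes. Its values were 0.421, 0.343, 0.286 and 0.353 FPKM in Med23+/+ replicates 1 to 4 and 0.392, 0.419, 0.294 and 0.249 FPKM in Med23-/- replicates 1 to 4. The genotypes overlapped over nearly their whole range, with means of 0.351 ± 0.0553 and 0.338 ± 0.0804 FPKM (SD, n = 4 each; exact permutation test, p = 0.83). No difference was resolved for Erbb2, and a small change at this level cannot be told from none. Erbb2 lies on chromosome 11, 98412470 to 98437716, plus strand. An exon of it overlaps Mien1 on the opposite strand, and the study does not state whether strand was used in counting.

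The 4 receptor genes summed to 45.1 ± 1.53 FPKM in the Med23+/+ libraries (SD, n = 4) and to 49.4 ± 10.5 FPKM in the Med23-/- libraries (SD, n = 4). Erbb4 made up 80.5 to 82.4% of this sum in the Med23+/+ libraries and 72.3 to 82.1% in the Med23-/- libraries. Below it, the order of the receptors turned over. Erbb3 made up 13.1 ± 2.27% and Egfr 4.69 ± 2.55% of the sum in Med23+/+ iOLs, and 4.66 ± 0.223% and 17.5 ± 4.99% in Med23-/- iOLs. The ratio of Egfr to Erbb3 ran from 0.120 to 0.695 over the Med23+/+ libraries and from 2.49 to 5.01 over the Med23-/- libraries. Erbb2 stayed under 1% of the sum in every library.

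**Figure D2:**
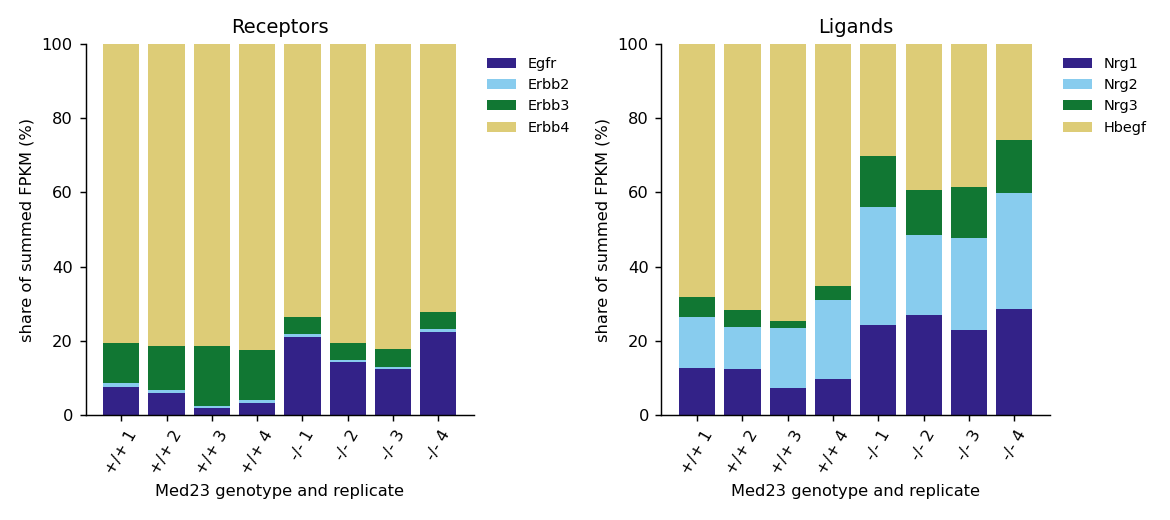
Share of each gene in the summed FPKM of the 4 receptor genes (left) and of the 4 ligand genes (right), as percent, for each library by Med23 genotype and replicate. Erbb3 is larger than Egfr in each Med23+/+ library and smaller in each Med23-/- library, and Hbegf makes up 65.1 to 74.7% of the ligand sum in Med23+/+ and 25.9 to 39.2% in Med23-/- libraries. The ligand sum leaves out the EGFR ligand gene Tgfa, which averaged 172 FPKM in Med23+/+ and 78.6 FPKM in Med23-/- libraries.

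Among the ligands, the neuregulin genes Nrg1 and Nrg3 rose while Hbegf fell. Hbegf encodes heparin-binding EGF-like growth factor, a ligand of EGFR and ERBB4. Its values were 11.3, 9.44, 12.9 and 11.2 FPKM in Med23+/+ replicates 1 to 4 and 4.07, 5.06, 5.50 and 4.09 FPKM in Med23-/- replicates 1 to 4. The highest Med23-/- library was well below the lowest Med23+/+ library (exact permutation test, p = 0.0286). The mean fell from 11.2 ± 1.42 to 4.68 ± 0.715 FPKM (SD, n = 4 each), 0.417 times as high, and the log2 fold change was -1.11 (SE 0.12, adjusted p = 0.000186). The ratio was 0.441 within replicates 1 and 2 and 0.397 within replicates 3 and 4. Hbegf lies on chromosome 18, 36504927 to 36515805, and Nrg2 on the same chromosome, 36017652 to 36197380, both on the minus strand.

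Nrg1 encodes the founding neuregulin, a ligand of ERBB3 and ERBB4. It had 2.08, 1.62, 1.24 and 1.68 FPKM in Med23+/+ replicates 1 to 4 and 3.28, 3.47, 3.26 and 4.52 FPKM in Med23-/- replicates 1 to 4. The genotypes did not overlap (exact permutation test, p = 0.0286), and Med23-/- replicate 4 stood above the other Med23-/- libraries. The mean rose from 1.66 ± 0.344 to 3.63 ± 0.600 FPKM (SD, n = 4 each), 2.19 times as high, and the log2 fold change of FPKM + 1 was 0.80 (SE 0.13, adjusted p = 0.00195). Without Med23-/- replicate 4 it was 0.72. Nrg1 (chromosome 8, 31814551 to 32884029, minus strand) has 12 annotated coding transcripts that differ in their signalling forms, and the values do not separate them. An exon of Nrg1 overlaps Gm26578 on the opposite strand.

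Nrg3, a neuregulin that binds ERBB4, had 0.906, 0.595, 0.322 and 0.676 FPKM in Med23+/+ replicates 1 to 4 and 1.87, 1.57, 1.96 and 2.23 FPKM in Med23-/- replicates 1 to 4. All Med23+/+ libraries were under 1 FPKM and all Med23-/- libraries above it (exact permutation test, p = 0.0286). The means were 0.625 ± 0.241 and 1.91 ± 0.271 FPKM (SD, n = 4 each), a ratio of 3.06, and the log2 fold change was 0.85 (SE 0.15, adjusted p = 0.00225). With a pseudocount of 0.1 the log2 fold change of this low gene was 1.53 (adjusted p = 0.00434). Nrg3 spans chromosome 14, 38368952 to 39473088, minus strand.

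Nrg2, a further ligand of ERBB3 and ERBB4, had 2.27, 1.51, 2.80 and 3.66 FPKM in Med23+/+ replicates 1 to 4 and 4.30, 2.79, 3.54 and 4.94 FPKM in Med23-/- replicates 1 to 4. The genotypes overlapped, since Med23+/+ replicates 3 and 4 reached above the lowest Med23-/- library. Nrg2 averaged 2.56 ± 0.906 FPKM over the Med23+/+ libraries and 3.89 ± 0.934 FPKM over the Med23-/- libraries (SD, n = 4 each). The log2 fold change of 0.47 (95% interval 0.02 to 0.93) was not called (adjusted p = 0.106; exact permutation test, p = 0.143). It was called without Med23+/+ replicate 4 (log2 fold change 0.62, adjusted p = 0.0495). Leaving out the other libraries gave adjusted p of up to 0.239. Summed over the 3 neuregulin genes, FPKM ran from 3.73 to 6.02 in the Med23+/+ libraries and from 7.83 to 11.7 in the Med23-/- libraries, while the sum with Hbegf was 16.1 ± 1.96 and 14.1 ± 1.25 FPKM (SD, n = 4 each).

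Errfi1 encodes MIG6, which binds the kinase domain of EGFR and inhibits it, and is itself induced by EGFR signalling. It had 5.46, 5.69, 6.63 and 6.18 FPKM in Med23+/+ replicates 1 to 4 and 8.44, 6.79, 8.07 and 8.43 FPKM in Med23-/- replicates 1 to 4. The groups did not overlap, but Med23-/- replicate 2 lay just above the highest Med23+/+ library (exact permutation test, p = 0.0286). The mean rose from 5.99 ± 0.523 to 7.93 ± 0.779 FPKM (SD, n = 4 each), 1.32 times as high, and the log2 fold change was 0.35 (SE 0.10, adjusted p = 0.0204). The call was lost under quantile normalization (adjusted p = 0.0587) and without Med23+/+ replicate 1 (0.0547), Med23+/+ replicate 2 (0.0514) or Med23-/- replicate 1 (0.0582, the highest adjusted p of any leave-one-out fit for this gene). Errfi1 (chromosome 4, 150853919 to 150868892, plus strand) shares exon sequence with 1700045H11Rik on the opposite strand.

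**Figure D3:**
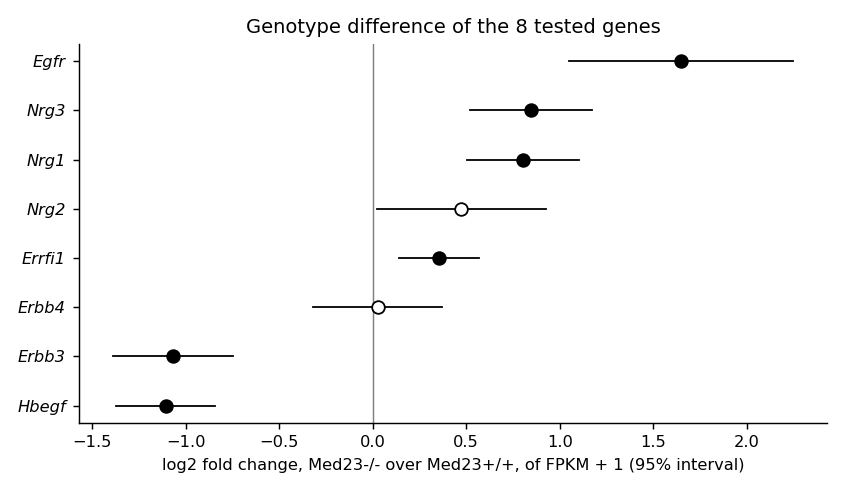
Log2 fold change of FPKM + 1, Med23-/- over Med23+/+, for the 8 tested genes, with 95% intervals from limma (horizontal axis), filled points with an adjusted p under 0.05. Egfr lies highest at 1.65 and Hbegf lowest at -1.11, and the intervals of Erbb4 (-0.32 to 0.37) and Nrg2 (0.02 to 0.93) belong to the uncalled genes.

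In order of mean level, the Med23+/+ iOLs had Erbb4, Hbegf, Errfi1, Erbb3, Nrg2, Egfr, Nrg1, Nrg3 and Erbb2. Erbb4 lay above 81.7% of all tested genes, Hbegf above 46.2% and Egfr above 10.8%. The libraries of neighbours overlapped for Errfi1 and Erbb3, for Nrg2 and Egfr, and for Egfr and Nrg1, so the order within these pairs is not resolved. The ranges of Nrg3 and Erbb2 overlapped too, but Nrg3 was above Erbb2 within 4 of 4 libraries. In Med23-/- iOLs the order was Erbb4, Egfr, Errfi1, Hbegf, Nrg2, Nrg1, Erbb3, Nrg3 and Erbb2. There Egfr lay above 36.3% of tested genes and Hbegf above 21.7%, and the overlapping neighbours were Egfr and Errfi1, Hbegf and Nrg2, Nrg2 and Nrg1, and Erbb3 and Nrg3.

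Markers of other cell types moved with genotype. Of 9 neuron markers 8 were tested and 7 were higher in Med23-/- iOLs, beside 15.9% of all tested genes. Snap25 and Stmn2 were among the 7, and the other tested one, Slc17a7, was not called (adjusted p = 0.141). Slc17a7 passed the limit on low values only through its Med23-/- libraries. The summed level of the neuron list was 72.7, 44.2, 45.0 and 49.8 FPKM in Med23+/+ replicates 1 to 4 and 122, 92.3, 197 and 161 FPKM in Med23-/- replicates 1 to 4. Neurons are known to make neuregulins, and some interneurons carry ERBB4. The part of neuronal RNA in the values of Nrg1, Nrg3 and Erbb4 was not tested. A different number of cells of a type and a different amount of RNA per cell cannot be told apart in these bulk libraries.

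Of the oligodendrocyte list, 6 of 7 genes were tested and all 6 were lower, beside 14.1% of all tested genes. Of these, Mag and Mog passed the limit on low values only through their Med23+/+ libraries. The sum of the list ran from 662 to 800.0 FPKM in Med23+/+ and from 153 to 304 FPKM in Med23-/- libraries. In the precursor list, Pdgfra and Cspg4 were higher, Gpr17 and Sox10 lower, and Olig1 and Olig2 not called. Astrocyte markers summed to between 107 and 154 FPKM in Med23+/+ and between 88.4 and 142 FPKM in Med23-/- libraries. Of 7 tested, Slc1a2 was called higher and Gfap and Aqp4 lower. The Aqp4 libraries of the genotypes overlapped (exact permutation test, p = 0.0571). Gja1, not called, passed the limit on low values only through its Med23-/- libraries. The part of these shifts of lineage stage and cell type in the values of Egfr, Erbb3 and Hbegf was not tested.

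The fibroblast and mural cell list was low and varied most between libraries. It summed to 10.8, 5.06, 0.833 and 1.05 FPKM in Med23+/+ replicates 1 to 4 and 17.0, 11.0, 7.11 and 2.86 FPKM in Med23-/- replicates 1 to 4, with neither of its 2 tested genes called. As with Egfr, replicates 1 and 2 were the higher ones in both genotypes for this list. Among the Med23+/+ libraries the whole order was the same for the list and for Egfr, replicate 1 highest, then 2, 4 and 3. Across the genotypes and among the Med23-/- libraries the orders differed. For the list, Med23+/+ replicate 1 (10.8) lay above Med23-/- replicates 3 (7.11) and 4 (2.86). For Egfr that Med23+/+ library lay below both, at 3.40 against 5.74 and 8.28 FPKM. Among the Med23-/- libraries, replicate 4 was lowest for the list, whereas replicate 3 was lowest for Egfr. The mean of the list was 4.44 FPKM in Med23+/+ and 9.50 FPKM in Med23-/- libraries, and its part in the values of Egfr was not tested. The endothelial list summed to at most 1.17 FPKM in Med23+/+ and 2.97 FPKM in Med23-/- libraries, and Kdr was its only tested gene. Kdr passed the limit on low values only through its Med23-/- libraries and was called higher (adjusted p = 0.0398), although the libraries of the genotypes overlapped (exact permutation test, p = 0.0857).

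**Figure D4:**
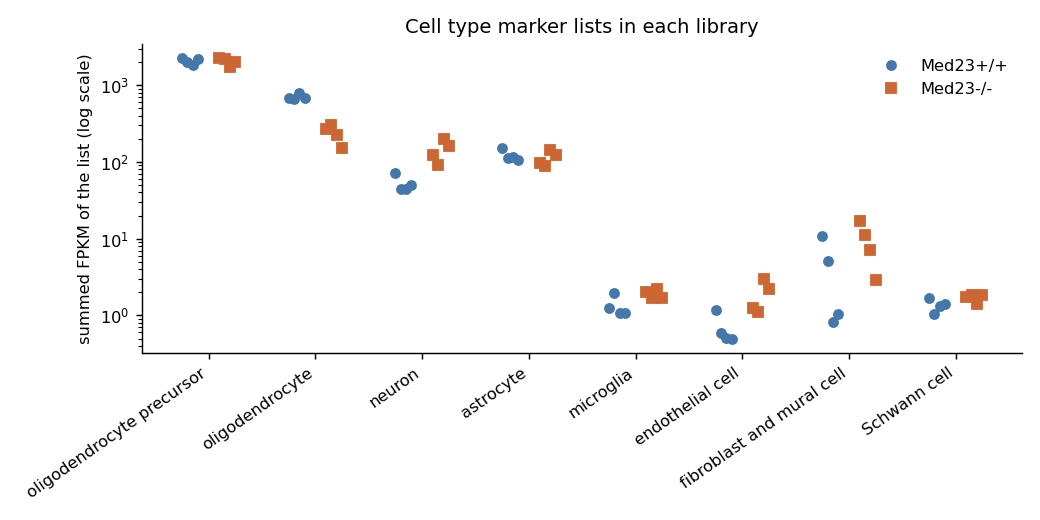
Summed FPKM of each cell type marker list in each library on a log scale (circles Med23+/+, squares Med23-/-, replicates 1 to 4 from left to right). The neuron sums lie higher in every Med23-/- library, the oligodendrocyte sums lie lower in every one, and the microglia, endothelial and Schwann cell sums stay under 3 FPKM.

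The remaining genes of the pathway were taken in 5 lists of 49 genes, of which 42 were tested. Of these, 4 were called higher and 9 lower, beside 15.9% and 14.1% of all tested genes, and their median log2 fold change was -0.05. Of the 42, Tgfa and Eps15 were called with a fold change over 2, beside 4.73% of all tested genes.

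Of 7 other EGF-family ligand genes, only Tgfa and Nrg4 reached the limit of 1 FPKM. Tgfa, which encodes the EGFR ligand TGF-alpha, was far more abundant than any of the 4 ligand genes above. It had 177, 162, 177 and 173 FPKM in Med23+/+ replicates 1 to 4 and 81.0, 93.8, 74.7 and 64.9 FPKM in Med23-/- replicates 1 to 4. The genotypes were far apart, and the mean fell from 172 ± 7.12 to 78.6 ± 12.1 FPKM (SD, n = 4 each; log2 fold change -1.13, SE 0.11, adjusted p = 0.000106). Nrg4 had means of 1.44 ± 0.706 and 1.78 ± 0.522 FPKM and was not called (adjusted p = 0.508). Egf, Areg, Btc, Ereg and Epgn had means under 1 FPKM in both genotypes. The 2 tested genes had a median log2 fold change of -0.46.

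Of 6 genes for the shedding and trafficking of ligands, 4 were tested. Adam17, the protease that releases HB-EGF and TGF-alpha from the cell surface, fell from 22.7 ± 3.36 to 15.8 ± 1.16 FPKM (SD, n = 4 each; log2 fold change -0.48, adjusted p = 0.00735). Rhbdf1, an inactive rhomboid that serves ADAM17, rose from 4.91 ± 0.536 to 7.26 ± 1.36 FPKM (log2 fold change 0.47, adjusted p = 0.0185), a call that was lost without Med23+/+ replicate 3 (adjusted p = 0.0551). Adam10 and Bace1 were not called, with log2 fold changes of 0.12 and -0.10. Bace2 and Rhbdf2 were too low to be tested, and the median of the list was 0.01.

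All 14 adaptor and PI3K-AKT genes were tested, and 12 of them were not called. Gab1, a docking protein of receptor kinases, was higher (37.1 ± 3.03 against 47.6 ± 4.88 FPKM, Med23+/+ first; log2 fold change 0.35, adjusted p = 0.0206), and Sos2, an exchange factor for RAS, was lower (18.4 ± 0.896 against 14.1 ± 0.958 FPKM; log2 fold change -0.37, adjusted p = 0.00571). The call of Gab1 was lost without Med23+/+ replicate 2 or Med23-/- replicate 2 (adjusted p of up to 0.0531). Both genes marked the ends of the list, whose median was 0.09. Of the uncalled genes, the PI3K subunit gene Pik3cb had the highest log2 fold change, at 0.27 (adjusted p = 0.0694).

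In the RAS-RAF-ERK list, 3 of 10 genes were lower, none higher, and the median was -0.16. The lower ones were the RAS gene Nras (log2 fold change -0.37, adjusted p = 0.00545), the RAF kinase gene Araf (-0.42, adjusted p = 0.00406) and the MEK gene Map2k2 (-0.33, adjusted p = 0.0148). At the other end Map2k1 had a log2 fold change of 0.23 (adjusted p = 0.116). The call of Map2k2 was lost under quantile normalization (adjusted p = 0.0653). The ERK gene Mapk3 had a log2 fold change of -0.39 and was not called (adjusted p = 0.0696).

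Of 12 genes for other inhibitors of ErbB receptors and for their ubiquitination and endocytosis, 2 were higher and 3 lower, with a median of -0.12. Eps15, an endocytic adaptor that EGFR phosphorylates, had 28.9, 30.1, 36.1 and 29.6 FPKM in Med23+/+ replicates 1 to 4 and 12.9, 14.8, 17.8 and 13.9 FPKM in Med23-/- replicates 1 to 4. Its groups did not overlap, and its log2 fold change was -1.03 (SE 0.11, adjusted p = 0.000186). Rnf41, the ubiquitin ligase that directs ERBB3 to degradation, fell from 21.9 ± 1.14 to 16.9 ± 0.470 FPKM (SD, n = 4 each; log2 fold change -0.35, adjusted p = 0.00456). The phosphatase gene Ptpn1 was lower as well (-0.27, adjusted p = 0.0345). Cblb, a ubiquitin ligase of the CBL family, was higher (log2 fold change 0.38, adjusted p = 0.00663), as was Lrig3 (0.34, adjusted p = 0.0433), whose libraries overlapped between the genotypes. The calls of Ptpn1 and Lrig3 were fragile, each lost in 6 of 8 fits that left out a library, with adjusted p of up to 0.0909 for Ptpn1 and 0.106 for Lrig3. Ptpn1 was lost without Med23+/+ replicate 1, 3 or 4 or Med23-/- replicate 1, 2 or 3, and Lrig3 without replicate 1, 2 or 4 of either genotype. The 7 uncalled genes lay between -0.25 (Socs4, adjusted p = 0.087) and 0.15 (Lrig2, adjusted p = 0.236).

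**Figure D5:**
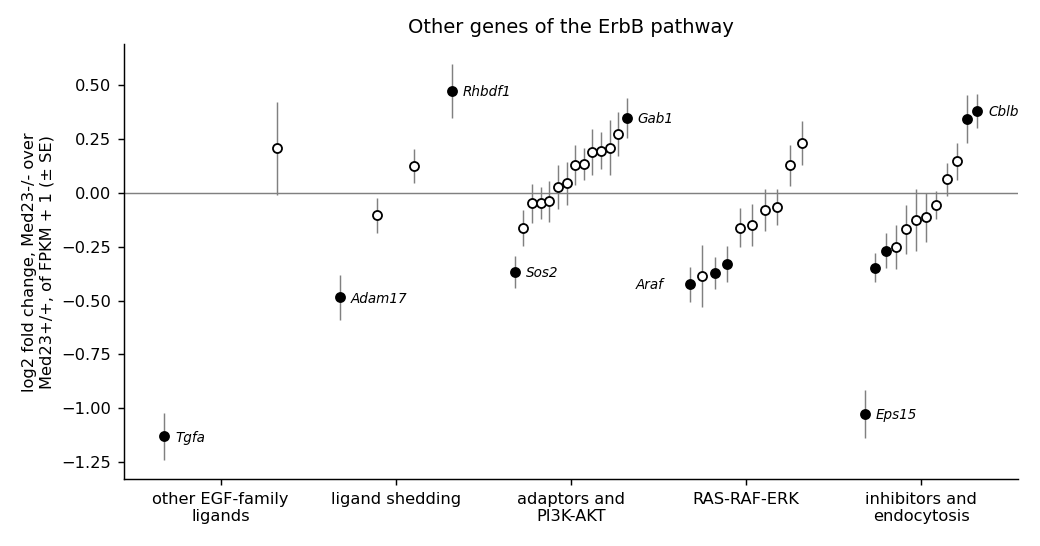
Log2 fold change of FPKM + 1, Med23-/- over Med23+/+, with SE, for the 42 tested genes of the 5 pathway lists, sorted within each list, filled points with an adjusted p under 0.05. Tgfa (-1.13) and Eps15 (-1.03) lie apart from the other genes, which range from -0.48 (Adam17) to 0.47 (Rhbdf1).

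The genes with the nearest profiles were sought among the 9434 genes averaging 5 FPKM or more, by the root mean square difference of log2(FPKM + 1) over the 8 libraries after centring each gene on its mean. Nearest to Egfr were Acot1 (difference 0.213) and Cdkn1a (0.235), and nearest to Erbb3 were St5 (0.0953) and Cyfip2 (0.0995). Hbegf was nearest to Dynll1 (0.0640) and Nacc2 (0.0852). Nrg1 lay nearest to Nfib (0.0762) and Gprc5b (0.0821), and Nrg3 to Gprc5b (0.0641) and Kcnk2 (0.0683). Errfi1 was nearest to Ttl (0.0649) and Itsn1 (0.0666). No gene of that abundance lay as near to Egfr as Dynll1 did to Hbegf. The difference is not scaled to a gene's own spread, however. Over the Med23+/+ libraries the SD was 54.8% of the mean for Egfr and 12.7% for Hbegf.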

How the data were processed

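RNA-seq libraries of 4 Med23+/+ and 4 Med23-/- iOLs were analysed. Cutadapt (trimming), Tophat2 (alignment to mm10, defaults) and cuffdiff (options -b for fragment bias and -u for multi-mapped reads) were used by the authors. Versions, annotation and library normalization are not given in the sources used here. The authors deposited FPKM per library for 24346 genes. Read depth is unknown. The table's pooled FPKM, fold changes, p-values and q-values from cuffdiff were not used.

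FPKM were transformed to log2(FPKM + 1). All 12328 genes averaging 1 FPKM or more were fitted with limma 3.58.1 in R 4.3.3 (lmFit, eBayes with trend), with Benjamini-Hochberg adjustment and a threshold of 0.05. The test was checked on simulated data. Exact permutation tests used FPKM and all 70 assignments of 4 of 8 libraries. Named genes were the members, Med23, called genes and range ends of the lists, marker genes, and the 2 nearest profiles of each called member among genes of at least 5 FPKM. The members and lists were chosen with earlier results of these data known. Positions are from GENCODE vM21 (mm10). Python 3.11.15 with pandas 2.3.3 made the tables and matplotlib 3.10.9 the figures. Alternatives were a pseudocount of 0.1, other filters, median-ratio and quantile scaling, no trend, sample weights, leaving out each library, replicate number as a block, and a covariate that sets replicates 1 and 2 apart from 3 and 4.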

Additional observations from a re-analysis of the deposited data

Results flagged for a closer look

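In Med23-/- iOLs, Nrg1 was at 4.52 FPKM in replicate 4, and its gap to the other 3 libraries was large for the range of the group (Dixon's criterion at 95%). Chance alone flags about 1 in 20 groups, and 20 groups were examined (10 genes in 2 genotypes). Without that library the log2 fold change of Nrg1 was 0.72.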

How the results depend on the processing

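Of 161 recomputed values of Med23 and the 9 genes, 151 kept their direction and their side of the threshold. Med23, Egfr, Erbb3, Hbegf, Nrg1 and Nrg3 kept both under each alternative in which they were fitted. With a mean of at least 5 FPKM, Erbb3, Nrg1, Nrg2 and Nrg3 were no longer tested. Egfr passed that filter only through its Med23-/- libraries and Hbegf only through its Med23+/+ libraries, so it gives their calls no separate support. Causes of the shifts below were not tested, read depth is unknown, and Erbb2 averaged under the limit of 1 FPKM.

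Errfi1 under quantile normalization had an adjusted p of 0.0587 (limma) at a log2 fold change of 0.27, and between 0.32 and 0.42 when a library was left out. Nrg2 ranged from 0.32 to 0.62 and Erbb4 from -0.11 (without Med23-/- replicate 2) to 0.18 in those fits. Erbb2 ranged from -0.043 to 0.018 on the log2 scale and turned to 0.01 without Med23+/+ replicate 1, 0.0012 without Med23-/- replicate 3 and 0.018 without Med23-/- replicate 4.

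The replicate numbers do not mark shared animals or batches in the labels, and deviations of libraries with the same number correlated between -0.096 and 0.159. With the replicate number as a block, Nrg2 had a log2 fold change of 0.47 with an adjusted p of 0.0212, and no other call among the 9 genes changed. In the block fit 2 adaptor genes and 1 inhibitor gene were higher.

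Genes higher in Med23-/- iOLs numbered 1957 of 12328, and 1281 of 9434 at a mean of at least 5 FPKM. With a fold over 2 they numbered 367, and 654 with a pseudocount of 0.1. Of 238 recomputed counts, 215 were within 1.5 times the reported count. In the shedding list, 2 genes were higher and 2 lower with all genes above 0 tested, 2 were higher under quantile normalization, and 0 to 1 were higher when a library was left out. Among the adaptors, 4 were higher under quantile normalization, 2 with a covariate for replicates 1 and 2 against the others, and 0 to 2 when a library was left out. In the RAS-RAF-ERK list, 0 to 1 were higher when a library was left out. Among the inhibitors, 1 was higher with all genes above 0 tested, at a mean of at least 5 FPKM and under quantile normalization, and 1 to 2 when a library was left out.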
